A study of Rattus norvegicus with 6 samples.

Results

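Titin, the proteins of the Z-disc and M-band that hold it in register, and the ubiquitin ligases that turn sarcomere proteins over were followed at the transcript level in cardiomyocytes given human cardiotrophin 1 (hCT1), a cytokine of the interleukin-6 family that signals through the gp130 receptor chain. The genes were taken from a list of 43 symbols, and a gene was kept if the annotation of the array paired a probe set with its symbol alone; a gene with several probe sets would have been read from the brightest. This left 35 genes of the 14506 that the array names, each with a single probe set. Tcap, Nebl, Xirp1, Synpo2l, Flnc, Myom2, Myom3 and Murc had no such probe set and were not analysed here, although Murc has 1 under its current symbol Cavin4 (log2 difference 0.06 ± 0.13 SE, limma adjusted p = 0.774), which stays outside the counts below.

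The cells were primary cardiomyocytes from ventricles of 2-day-old Sprague-Dawley rats, depleted of fibroblasts by plating them out, and after an overnight recovery in growth medium every culture was moved to serum-free medium before treatment. The 3 hCT1 samples received hCT1 at 0.5 nM for 24 h and the 3 control samples received the serum-free medium without it. The records name a hypertrophic agonist in the growth medium of all 6 samples, which was read here as general text because their treatment field gives the controls plain serum-free medium. Each sample of total RNA went onto 1 Affymetrix rat array that reads whole transcripts, and whether the 3 samples of a group came from separate cultures is not stated, so the spread that the p-values rest on may be no more than technical.

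A sarcomere runs between neighbouring Z-discs, where actin filaments are anchored by α-actinin, and titin spans from the Z-disc to the M-band in the middle, where myomesin ties the thick filaments together. Myosin-binding protein C sits on the thick filament, desmin filaments link Z-discs of adjacent myofibrils, and ankyrin-repeat and LIM proteins bound to titin or the Z-disc respond to stretch. The muscle RING-finger proteins (MuRF) and atrogin-1 are ubiquitin ligases of striated muscle that mark sarcomere proteins for the proteasome. The transcripts of MuRF1 and atrogin-1 are the classical ones of muscle atrophy. In heart muscle many of these genes are co-regulated in development and in hypertrophy.

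Most of the changes in these genes were small decreases, and a single gene, Mybpc2, rose by more than 1.5-fold. Of the 35 genes, 14 fell and 2 rose with hCT1, and 19 did not pass the test (limma on the log2 values, Benjamini-Hochberg adjusted p under 0.05). The lower genes made up 40% of the members, against 9.84% of the 15310 probe sets tested, and the higher genes 5.71% against 4.98%; 14.8% of all probe sets passed in either direction. The decreases ranged from 1.17-fold to 1.44-fold. The median log2 fold change was -0.11 over the 35 genes and -0.0005 over all genes. In each of the 16 genes that passed, the values of the groups did not overlap, and 5 lower-lying and 3 higher-lying genes also kept the groups apart without passing. In total the groups lay apart downward in 19 members and upward in 5, against 20.5% and 13.9% of all probe sets. Among the 26 members with a mean log2 value of at least 9, a limit chosen after the values were seen, 11 fell (42.3%) and 1 rose, against 10.7% and 7.74% of the 2650 probe sets as bright.

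**Figure D1:**
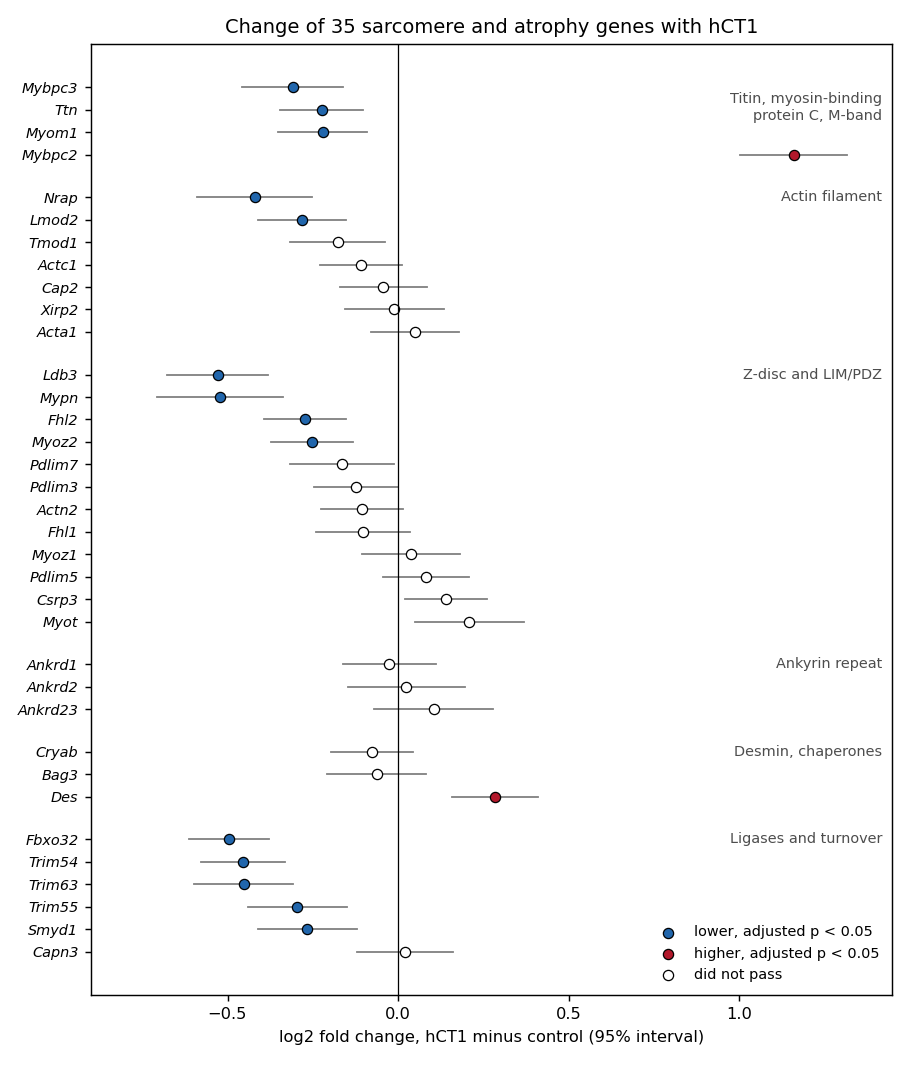
Log2 fold change of each of the 35 genes, hCT1 minus control, with its 95% interval from limma (3 samples per group), grouped by role. Blue genes fell, red genes rose and open circles did not pass the test; Mybpc2 stands alone at 1.16, while the lower genes lie between -0.53 and -0.22.

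The scaling of the arrays bears on the balance of directions. When each array was centred on its median, which moved the median of all genes by 0.09, the split of all calls went from 1506 lower and 762 higher to 765 lower and 2304 higher. Then 7 members were lower and 4 higher, against 5.0% and 15.0% of all probe sets. After another quantile normalization the split over all probe sets was 1100 lower (7.2%) and 925 higher (6.0%), and 14 members were still lower and 2 higher. Mybpc2, Ldb3, Trim54, Trim63 and Fbxo32 passed in the same direction under all 16 alternatives run.

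The genes of myosin-binding protein C moved in opposite directions. Mybpc2, which encodes the form of fast skeletal muscle, had log2 values of 7.2, 7.38 and 7.27 in the control samples and of 8.48, 8.51 and 8.35 in the hCT1 samples. The hCT1 values all exceeded the control values, with a gap of 0.97 between the groups and within-group SDs of 0.09 and 0.08. Mybpc2 thus rose 2.23-fold (log2 difference 1.16 ± 0.07 SE, limma adjusted p = 1.57e-05). Mybpc3, the cardiac form, had log2 values of 10.09, 10.06 and 10.13 in the control samples and of 9.89, 9.8 and 9.67 in the hCT1 samples, again without overlap. It fell 1.24-fold (log2 difference -0.31 ± 0.07 SE, limma adjusted p = 0.0151). This decrease did not pass after centring the arrays. It also did not pass by a one-way test without moderation and with Benjamini-Hochberg adjustment (one-way adjusted p = 0.0783). The methods name a one-way test for comparisons of several groups and no test for the arrays. Within each sample, the Mybpc2 value less the Mybpc3 value went from -2.81 ± 0.11 to -1.34 ± 0.06 (SD, n = 3 each), a shift of 1.47. An exact permutation test of 3 samples against 3 can give no p below 0.1, which is the value found here (0.183 adjusted over the 11 pairs of related genes compared, 2-sided). Most marker genes of skeletal muscle were dim: of 10 such genes 9 lay below percentile 40 of the control signal, and none of the 10 passed as higher. Myl1, a fast-muscle myosin light chain gene from another list, was brighter (percentile 74.1). It was higher in every hCT1 sample and did not pass (log2 difference 0.24 ± 0.08 SE, limma adjusted p = 0.0671). Pvalb, which encodes the calcium buffer parvalbumin of fast fibres, lay higher in every hCT1 sample and just missed the threshold (log2 difference 0.31 ± 0.09 SE, limma adjusted p = 0.0555, percentile 22.2 of the control signal). It passed with trend and robust moderation, with array weights, with the sample number as a block, after centring or without control replicate 3. The other dim genes, Myod1, Myog, Myf5, Myh1, Myh4, Tnni2, Tnnt3 and Actn3, had log2 differences between -0.12 and 0.13. The summed level of the 10 genes, most of it from Ckm, was 10.84 to 10.96 in control samples and 10.25 to 10.29 in hCT1 samples on the log2 scale. Their part in the rise of Mybpc2 was not tested.

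**Figure D2:**
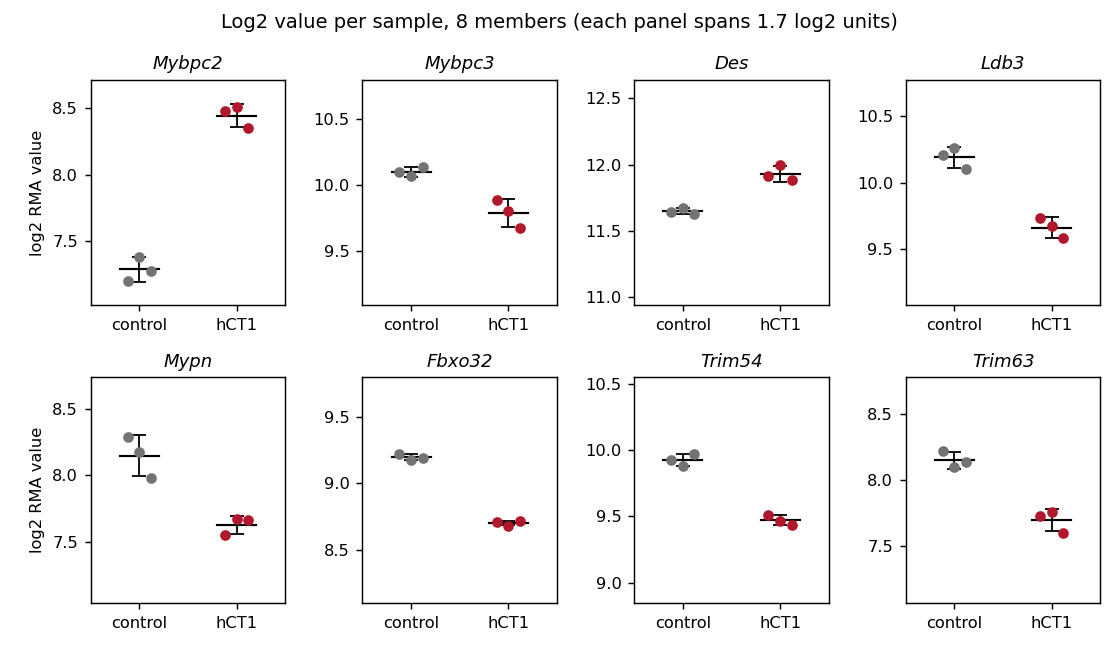
Log2 RMA value of 8 genes in each sample, control in grey and hCT1 in red; points are samples, horizontal lines are means and bars are SDs (n = 3). Mybpc2 and Des are higher in every hCT1 sample and the other 6 genes are lower in every hCT1 sample.

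Titin itself changed little. Ttn, which encodes the giant spring protein, was 10.21 ± 0.04 in control samples and 9.99 ± 0.02 in hCT1 samples (SD, n = 3 each), a 1.17-fold decrease (log2 difference -0.22 ± 0.05 SE, limma adjusted p = 0.0242). Myom1, which encodes myomesin of the M-band, fell by the same -0.22 (limma adjusted p = 0.0337). Neither call held in every fit with 1 sample left out: Ttn no longer passed without control replicate 2 or any 1 of the hCT1 replicates, and Myom1 no longer passed when any 1 of the 6 samples was left out. Without control replicate 2, or any 1 of the hCT1 replicates, 1 of the 4 genes of titin, the thick filament and the M-band was lower, in place of 3, and after centring the arrays none was. The lower share of all probe sets was 9.84% in the main fit, 5.3% to 6.5% in these leave-out fits and 5.0% after centring.

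All the ubiquitin ligase genes among the members were lower with hCT1. Of 6 genes grouped as ligases and turnover, 5 fell and 1 did not pass. The 5 were the ligase genes and Smyd1, a methyltransferase gene. Fbxo32, which encodes atrogin-1, had log2 values of 9.22, 9.18 and 9.19 in the control samples and of 8.71, 8.68 and 8.71 in the hCT1 samples. The SD was 0.02 within each group, and the gap between the groups was 0.46. Fbxo32 fell to 71% of its control level, or 1.41-fold (log2 difference -0.49 ± 0.05 SE, limma adjusted p = 0.000429).

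The 3 MuRF genes fell with it. Trim63, the gene of MuRF1, had log2 values of 8.22, 8.1 and 8.13 in the control samples and of 7.73, 7.76 and 7.61 in the hCT1 samples, a log2 fold change of -0.45 ± 0.06 (SE; limma adjusted p = 0.00218). Trim54, the gene of MuRF3, which also binds microtubules, had values of 9.93, 9.88 and 9.97 against 9.51, 9.46 and 9.44, a log2 fold change of -0.45 ± 0.05 (SE; limma adjusted p = 0.000914). Neither gene had overlapping groups, and the difference between Trim63 and Trim54 within a sample overlapped between the groups (a shift of 0.0014, exact permutation p = 0.9). Trim55, the gene of MuRF2, was lower by a smaller amount (-0.3 ± 0.06 SE, limma adjusted p = 0.0161) and no longer passed without hCT1 replicate 3, by the one-way test or after centring. Set against Trim55 within each sample, the Trim63 value shifted by -0.16, with no overlap between the groups (exact permutation p = 0.1).

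The remaining genes of this group differ in kind from the ligases. Smyd1, which encodes a muscle methyltransferase needed for thick-filament assembly, fell by -0.27 ± 0.06 (SE; limma adjusted p = 0.025), a call lost without control replicate 2 or 3 or without hCT1 replicate 1 or 3. Capn3, the muscle calpain that binds titin, had a log2 fold change of 0.02 (95% interval -0.12 to 0.16), and at percentile 31.5 of the control signal it may lie at background. The count of lower genes in this group was 3 of 6 without hCT1 replicate 3, by the one-way test or after centring. The lower share of all probe sets was then 6.5%, 4.4% and 5.0%.

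Regulatory sequence is shown for the members whose calls held under all alternatives and for Mybpc3, the cardiac counterpart of Mybpc2. The 250 bases before the annotated start were read from RefSeq promoters of assembly GRCr8, in which 27 of the 35 members were matched; Nrap, Csrp3, Myot, Pdlim3, Ankrd1, Cryab, Trim55 and Fbxo32 were not. Capitals mark the motifs searched on both strands, namely the CArG box bound by serum response factor, the MEF2 site, MCAT (CATTCC, bound by TEAD factors), TATAAA, the STAT motif TTCNNNGAA and the FOXO motif GTAAACA. The windows lie at chr1:104154102-104154351 on the minus strand for Mybpc2, chr3:97550811-97551060 on the plus strand for Mybpc3, chr5:151816986-151817235 on the plus strand for Trim63, chr6:30978476-30978725 on the minus strand for Trim54 and chr16:9924680-9924929 on the minus strand for Ldb3.
Mybpc2: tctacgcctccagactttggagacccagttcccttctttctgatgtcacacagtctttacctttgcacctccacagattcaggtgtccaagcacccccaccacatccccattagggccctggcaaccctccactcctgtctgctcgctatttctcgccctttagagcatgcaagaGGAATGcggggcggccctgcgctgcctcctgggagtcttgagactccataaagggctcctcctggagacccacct
Mybpc3: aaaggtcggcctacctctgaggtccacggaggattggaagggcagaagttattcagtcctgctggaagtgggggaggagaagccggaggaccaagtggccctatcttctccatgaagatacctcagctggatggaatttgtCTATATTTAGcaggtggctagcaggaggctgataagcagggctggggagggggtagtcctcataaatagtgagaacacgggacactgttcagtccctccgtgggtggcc
Trim63: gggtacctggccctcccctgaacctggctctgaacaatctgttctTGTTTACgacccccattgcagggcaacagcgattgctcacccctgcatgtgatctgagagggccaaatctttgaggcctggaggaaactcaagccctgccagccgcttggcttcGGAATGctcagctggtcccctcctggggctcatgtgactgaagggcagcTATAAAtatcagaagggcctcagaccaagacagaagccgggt
Trim54: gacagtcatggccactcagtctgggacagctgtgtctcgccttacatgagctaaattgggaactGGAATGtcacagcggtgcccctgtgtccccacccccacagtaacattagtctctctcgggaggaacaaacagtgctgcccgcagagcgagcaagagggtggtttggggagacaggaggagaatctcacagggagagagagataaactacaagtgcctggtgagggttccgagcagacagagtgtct
Ldb3: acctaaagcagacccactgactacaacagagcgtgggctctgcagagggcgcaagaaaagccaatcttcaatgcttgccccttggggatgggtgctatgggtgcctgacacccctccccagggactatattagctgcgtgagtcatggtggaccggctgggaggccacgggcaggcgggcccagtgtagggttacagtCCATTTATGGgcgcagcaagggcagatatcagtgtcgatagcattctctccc

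Counted from -1 at the base before the start, Mybpc2 holds MCAT from position -75 and Mybpc3 a MEF2 site from -109. Trim63 holds the FOXO motif from -205, MCAT from -91 and TATAAA from -42, Trim54 holds MCAT from -186, and Ldb3 holds a CArG box from -52. The MEF2 site was found in 7 of the 27 members with a sequence, against 2.96% of the 33469 promoters of the table, namely in 4 of the 11 lower genes with a sequence (Fhl2, Mybpc3, Myoz2 and Ttn) and in 3 of the 14 that did not pass (Capn3, Myoz1 and Xirp2). The CArG box was found in 4 members (Acta1, Fhl1, Fhl2 and Ldb3) against 1.5% of all promoters. MCAT was found in 7 against 12.1%, and TATAAA in 7 against 12.9%. The STAT motif was found in Myom1 alone, against 7.67%, and the FOXO motif in Trim63 alone, against 3.21%. Fhl1 and Fhl2 each have 2 annotated starts and were counted once, and in Fhl2 the MEF2 and TATAAA matches of 1 start overlap and MCAT adjoins them. A match is a run of letters and not a site shown to be bound.

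At the Z-disc, 4 of 12 genes fell, none rose and 8 did not pass. Ldb3, which encodes the PDZ-LIM protein ZASP (Cypher) that binds α-actinin, had log2 values of 10.21, 10.26 and 10.1 in the control samples and of 9.73, 9.67 and 9.58 in the hCT1 samples. This was the largest decrease of all members (1.44-fold, log2 difference -0.53 ± 0.07 SE, limma adjusted p = 0.00107), with a gap of 0.37 between the groups. Mypn, which encodes myopalladin, a partner of nebulin-family proteins and α-actinin, had log2 values of 8.29, 8.18 and 7.98 in the control samples and of 7.55, 7.67 and 7.66 in the hCT1 samples. The control samples of Mypn were the most scattered of any member (SD 0.16) and still did not overlap with the hCT1 samples (log2 difference -0.52 ± 0.08 SE, limma adjusted p = 0.0035). The one-way test did not pass Mypn.

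Fhl2, a LIM-only protein that binds titin, and Myoz2, the cardiac calsarcin that tethers calcineurin to the Z-disc, fell by smaller amounts. Their log2 fold changes were -0.27 ± 0.05 (SE; limma adjusted p = 0.0104) for Fhl2 and -0.25 ± 0.05 (SE; limma adjusted p = 0.0144) for Myoz2, which did not pass without control replicate 2 or hCT1 replicate 1. After centring the arrays, neither Fhl2 nor Myoz2 passed. Then 2 Z-disc genes were lower and 2 higher, against 5.0% and 15.0% of all probe sets. The higher ones were Csrp3 and Myot, and Myot was dim (percentile 20.1 of the control signal).

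The backbone of the Z-disc, α-actinin, did not pass the test. Actn2 was 11.67 ± 0.03 in control samples and 11.57 ± 0.03 in hCT1 samples (SD, n = 3 each), so that the log2 difference was -0.1 with a 95% interval from -0.23 to 0.02. The groups of Actn2 were apart by 0.04, and the gene passed with trend and robust moderation. Among the PDZ-LIM genes the log2 fold changes were -0.16 for Pdlim7, -0.12 for Pdlim3 and 0.08 for Pdlim5, and that of the LIM-only gene Fhl1 was -0.1. Csrp3, the gene of muscle LIM protein, which is linked to stretch sensing, was higher in every hCT1 sample by a mean of 0.14 and did not pass (limma adjusted p = 0.112), whereas it passed with trend and robust moderation or after centring. Myot and Myoz1, the genes of myotilin and of the fast-muscle calsarcin, had log2 fold changes of 0.21 and 0.04 and lay at percentiles 20.1 and 38.7 of the control signal, so that their values may be background. Myot was higher in every hCT1 sample and did not pass (limma adjusted p = 0.082). It passed with array weights, after centring or without control replicate 3.

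Of 7 genes of the actin filament, 2 fell and 5 did not pass. Nrap, which encodes a nebulin-related anchoring protein of nascent myofibrils, had log2 values of 10.44, 10.36 and 10.42 in the control samples and of 9.97, 10.13 and 9.86 in the hCT1 samples. It fell 1.34-fold (log2 difference -0.42 ± 0.07 SE, limma adjusted p = 0.00639), with the hCT1 samples spread over 0.27, and did not pass by the one-way test. Lmod2, which encodes the cardiac leiomodin that elongates thin filaments at their pointed ends, had values of 10.27, 10.19 and 10.22 in the control samples and of 10, 9.95 and 9.89 in the hCT1 samples. The groups of Lmod2 did not overlap and its log2 fold change was -0.28 ± 0.06 (SE; limma adjusted p = 0.0119).

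The sarcomeric actins did not pass the test. Actc1, the cardiac α-actin, had a log2 fold change of -0.11 (95% interval -0.23 to 0.01) and Acta1, the skeletal α-actin that is re-expressed in the hypertrophic heart, one of 0.05 (95% interval -0.08 to 0.18). The Acta1 value less the Actc1 value was nevertheless higher in every hCT1 sample than in any control sample, at -0.82 ± 0.05 against -0.98 ± 0.05 (SD, n = 3 each; exact permutation p = 0.1). Tmod1, which caps pointed ends, had a log2 fold change of -0.18 (limma adjusted p = 0.0883) with the groups apart by 0.03, and passed after the dim probe sets had been removed. With trend and robust moderation both Actc1 and Tmod1 passed, which made 4 of 7 genes lower, against 12.4% of all probe sets. The values were -0.04 for Cap2, an actin-monomer-binding protein, and -0.01 for Xirp2, an actin-binding repeat protein of the intercalated disc, and both were above 0 after centring the arrays.

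None of the ankyrin-repeat genes that bind titin's spring passed. Ankrd1, which encodes the cardiac ankyrin repeat protein and is a widely used marker of hypertrophic stress, had log2 values of 11.93, 11.92 and 12.04 in the control samples and of 11.95, 11.99 and 11.88 in the hCT1 samples. The groups overlapped, and the 95% interval of the log2 fold change ran from -0.16 to 0.11. Ankrd23 had log2 values of 5.32, 5.35 and 5.17 in the control samples and of 5.52, 5.32 and 5.3 in the hCT1 samples (log2 fold change 0.1, limma adjusted p = 0.401), and Ankrd2 had a log2 fold change of 0.02. These last genes lay at percentiles 47 and 44 of the control signal. Both were among the probe sets that the filter removes as dim, which limits what can be read from them.

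Des, which encodes the intermediate filament of muscle, was the other gene that rose. Its log2 values were 11.65, 11.67 and 11.63 in the control samples and 11.91, 12 and 11.88 in the hCT1 samples, with a gap of 0.21 between the groups. Des rose 1.22-fold (log2 difference 0.28 ± 0.06 SE, limma adjusted p = 0.0109), and it did not pass at an adjusted p under 0.01. Desmin is also made by smooth muscle. Of 9 smooth muscle markers 3 were lower (Myh11 -0.39, Smtn -0.36 and Tagln -0.3) and 6 did not pass, although Cnn1, the calponin gene, passed as higher after centring (0.2). Their summed level was 13.39 to 13.43 in control samples and 13.31 to 13.33 in hCT1 samples on the log2 scale, and the part of these cells in the rise of Des was not tested. Cryab, the small heat-shock protein αB-crystallin that protects desmin and titin, had log2 values of 12.06, 12.04 and 12.09 in the control samples and of 11.99, 12.02 and 11.95 in the hCT1 samples. Its log2 fold change of -0.08 did not pass (limma adjusted p = 0.382), nor did that of -0.06 of the co-chaperone gene Bag3, and both values were above 0 after centring.

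The samples of a group did not move alike in every member. The lowest hCT1 value was that of replicate 3 in 24 of the 35 members, and in 10 of the 14 lower genes. The lowest control value was that of replicate 2 in 18 of the 35 members. The same counts over all genes were not computed. The median deviation of the members from their control mean was -0.11 in hCT1 replicate 1, -0.07 in replicate 2 and -0.14 in replicate 3, and it lay between -0.02 and 0.03 in the control samples. Over all genes the same median stayed between -0.02 and 0.01 in every sample. Without hCT1 replicate 3, 10 members were lower and 2 higher, and the median over the members was -0.09. In that fit 6.5% of all probe sets were lower and 3.3% higher. The SD of a member within a group ranged from 0.009 to 0.16, with a median of 0.06.

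**Figure D3:**
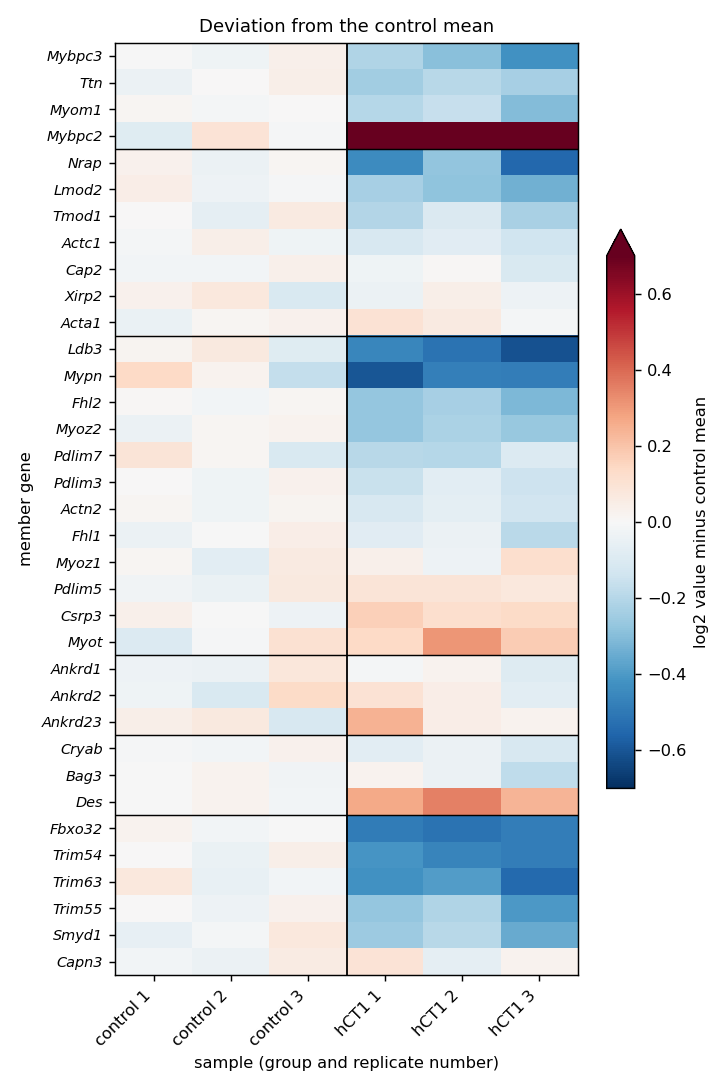
Log2 value of each of the 35 genes (vertical axis, grouped by role) in each of the 6 samples (horizontal axis), as the deviation from the gene's mean over the 3 control samples; blue is lower, red higher, and Mybpc2 exceeds the colour scale. The block of ligase and turnover genes at the bottom, which includes Smyd1, is blue in all 3 hCT1 samples, with Capn3 near 0.

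In 6 of the 11 pairs of related genes the difference within a sample did not overlap between the groups, and each of these has the smallest exact permutation p that 3 samples against 3 allow (0.1, 2-sided; 0.183 adjusted over the 11 pairs). Besides the pairs of Mybpc2 with Mybpc3, Acta1 with Actc1 and Trim63 with Trim55, these were Myoz1 with Myoz2 (0.29 higher), Fhl1 with Fhl2 (0.17 higher) and Pdlim3 with Pdlim5 (a shift of -0.21). Adding a constant to an array leaves such a difference as it is, but in Myoz1 the dim signal limits what can be read. The share of arbitrary pairs that lie apart was not computed, and a pair can lie apart where only 1 of its genes changed. Among single probe sets the groups lay apart downward in 20.5% and upward in 13.9%. The groups overlapped for Ankrd1 with Ankrd2 (-0.05), Ankrd1 with Ankrd23 (-0.13), Pdlim7 with Pdlim5 (-0.25), Trim63 with Trim54 and Trim63 with Fbxo32 (0.04).

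**Figure D4:**
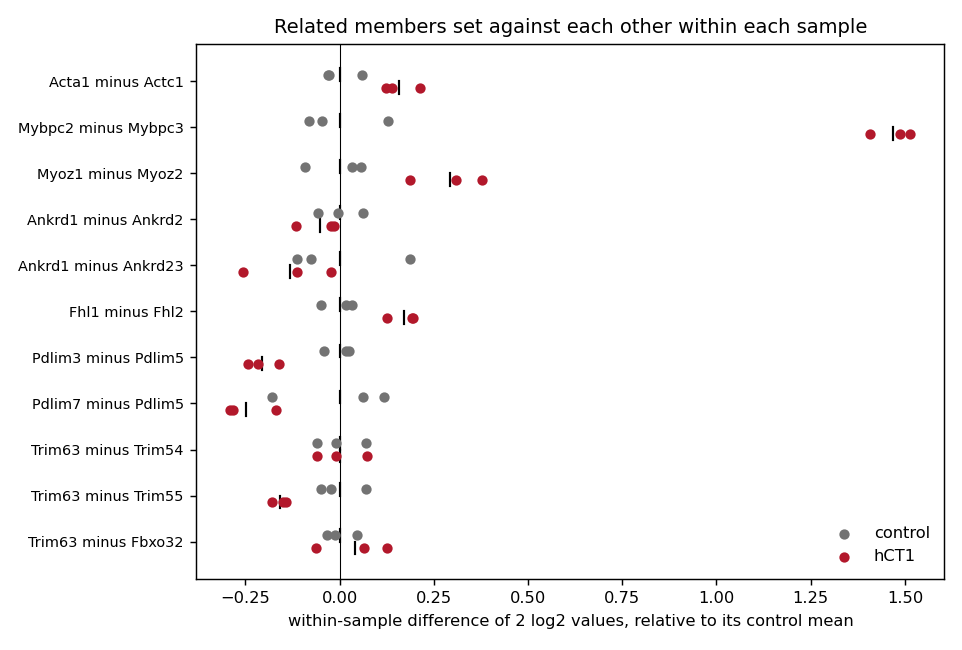
For 11 pairs of related genes, the log2 value of the first gene less that of the other in each sample (horizontal axis, log2 units), set relative to its mean over the 3 control samples; grey points are control samples, red points are hCT1 samples and black ticks are means. The pair of Mybpc2 with Mybpc3 shifted by 1.47 and no other pair by more than 0.29.

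The other genes of the sarcomere and of muscle protein turnover give the setting. Of 18 myosin, troponin, tropomyosin and related filament genes, 12 fell and none rose, with a median log2 fold change of -0.37; the largest decreases were in Myh3 (-1.39), Myl7 (-1.11), Mybphl (-0.67), which encodes a relative of myosin-binding protein C, and Tnni3 (-0.62). Of 31 further genes of the Z-disc, the M-band and the costamere, which joins Z-discs to the membrane, 4 fell and 2 rose (median -0.06). The integrin gene Itga7 rose by 0.56 and the heat-shock gene Hspb1 by 0.27, while Sgca, of the sarcoglycan complex, fell by 0.37 and Smpx, which encodes a small muscle protein, fell by 0.37 on the log2 scale. The shares of lower genes were 66.7% and 12.9%, against 9.84% of all probe sets.

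Of 32 further genes of proteolysis 3 fell and 2 rose (median -0.02). The share of lower genes, 9.38%, was close to the 9.84% of all probe sets. The deubiquitinase gene Usp14 rose by 0.37 and the lysosomal protease gene Ctsb by 0.25, and the ubiquitin ligase gene Fbxo21 (-0.28) and the FOXO gene Foxo4 (-0.27) fell. Among known activators of Fbxo32 and Trim63, Klf15 fell by 0.22 on the log2 scale (limma adjusted p = 0.0328). Klf15 lay at percentile 48.4 of the control signal and was among the probe sets that the filter removes as dim. Foxo1 and Foxo3 had differences of 0.06 and 0.17 and did not pass (limma adjusted p = 0.671 and 0.121). The part of these activators in the decrease of the ligases was not tested. Of 10 regulators of muscle genes 3 fell, namely Mef2d (-0.34), Myocd (-0.3) and Tbx5 (-0.29), and none rose (median -0.16).

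**Figure D5:**
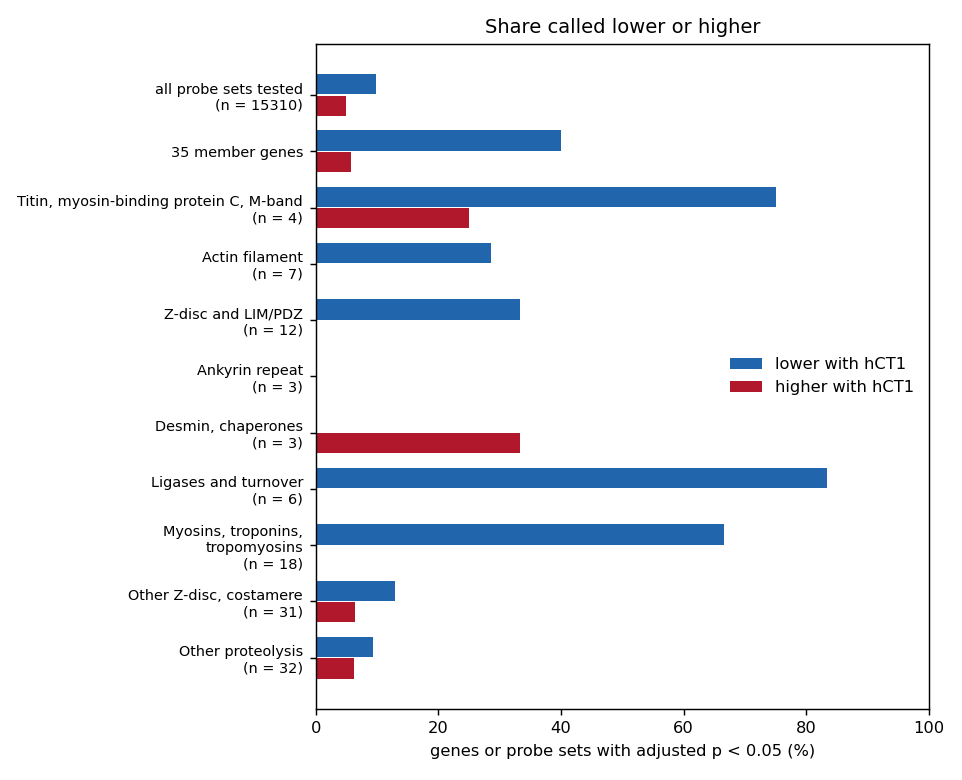
Percentage of genes that fell (blue) or rose (red) with hCT1 at an adjusted p under 0.05, for all probe sets tested, for the 35 members, for their 6 role groups and for 3 related lists, with the number of genes in brackets. The share of lower genes is 9.84% over all probe sets, 40% over the members and 83.3% in the group of ligases and turnover.

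The cultures carried the markers of cardiomyocytes, and these too were partly lower with hCT1. Of 12 cardiomyocyte genes, 4 fell (Tnni3, Myl2 by -0.48, Myh6 by -0.45 and Tnnc1 by -0.31), none rose and 8 did not pass, and their summed level was 14.96 to 14.97 in control samples and 14.86 to 14.92 in hCT1 samples. Less RNA per cell and fewer cardiomyocytes cannot be told apart in such samples. None of 11 fibroblast genes passed (Dcn 0.18 and Col3a1 -0.17 were furthest from 0), with summed levels of 13.72 to 13.78 in control and 13.68 to 13.71 in hCT1 samples. Of 8 atrial genes 3 were lower, among them Sln (-1.15), Myl7 and Kcnj3 (-0.36), and Dkk3 was higher (0.29). Among markers of other cells, Emcn was lower of 9 endothelial genes (-0.47), Lyz2 of 10 leukocyte genes (-0.52) and Ckm, which the heart also expresses, of 10 skeletal muscle genes (-0.71). Of 5 mesothelial genes Krt19 was higher (1.82) and Krt18 (-0.71) and Msln (-0.29) were lower. The part of these markers in the changes of the members was not tested.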

How the data were processed

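The deposited values are log2 values per probe set that the authors made in Affymetrix Expression Console with RMA, which corrects background, makes the arrays share 1 distribution and summarises the probes of each set; versions and a genome build are not given in the sources used here. They were used as deposited. Of 29215 probe sets, 15310 paired with exactly 1 symbol by the platform annotation were tested, 323 had several symbols and 13582 were unnamed. Precision is limited by the number of arrays, and RMA understates the folds of dim probe sets.

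Samples were grouped by their titles, 3 per group. hCT1 and control were compared by moderated linear models (limma 3.58.1 under R 4.3.3, functions lmFit and eBayes, 2-sided) over all 15310 probe sets, with Benjamini-Hochberg adjustment. Levels of different probe sets entered the pair differences, the summed levels, the percentiles and the limits for dim and bright signal, and were not otherwise compared. The pair tests asked only whether a difference between 2 probe sets shifted between the groups. Pairs of genes were compared by an exact permutation test (scipy 1.17.1). Percentiles of control signal refer to all 29215 probe sets. A summed level is the log2 of the summed linear values of a list. Alternatives were other moderation (statmod 1.5.0), array weights, a one-way test, removal of probe sets below percentile 40 by mean signal, other scalings, adjustments and thresholds, averaged probe sets, the sample number as a block and leaving out each sample. Of all these fits, only the main limma fit was tested on simulated data. Pearson's r over all probe sets was 0.997 to 0.998 within groups and 0.994 to 0.996 between them.

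The members, lists and tests were chosen with earlier results of these data known. All members are named; values per sample are given for genes that passed with a log2 fold change of at least 0.5 in size, for the 2 largest changes of each role group, and for Trim63, which was added after its values were seen. Of other lists, the 4 largest changes that passed are named, or the 2 largest values. Foxo1, Foxo3, Klf15, Cnn1, Myl1 and the dim skeletal genes were added after their values were seen. Lists were matched to platform symbols, or to current RefSeq symbols through the Entrez identifier.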

Additional observations from a re-analysis of the deposited data

How the results depend on the processing

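None of the 16 genes that passed changed sign under any of the 16 alternatives, and 5 of them (Mybpc2, Ldb3, Trim54, Trim63 and Fbxo32) passed under every one. The count of lower members, 14, was 7 after centring the arrays on their median, 8 by the one-way test with adjustment, 17 with trend and robust moderation, 6 at an adjusted p under 0.01 and 10 to 13 when 1 sample was left out. The lower share of all probe sets, 9.84%, was in that order 5.0%, 4.41%, 12.4%, 3.68% and 5.2% to 11.8%. The count of higher members, 2, was 4 after centring, 3 with trend and robust moderation or array weights, 1 at an adjusted p under 0.01 and 2 to 3 when 1 sample was left out. The higher share of all probe sets, 4.98%, was in that order 15.0%, 6.4%, 7.2%, 1.9% and 2.7% to 5.7%. The median log2 fold change of the members, -0.11, was -0.0138 after centring, -0.1708 after the dim probe sets had been removed (5 of the 35 members fail that filter) and -0.1333 to -0.0935 when 1 sample was left out. The count over all probe sets, 2268, was 1051 by the one-way test, 1334 with all probe sets in the adjustment, 859 at an adjusted p under 0.01, 2872 with trend and robust moderation, 3109 with array weights, 3069 after centring, 2779 without the dim probe sets and 1242 to 2683 when 1 sample was left out. The cause of these changes was not tested, other than the fewer calls that a stricter threshold or a larger adjustment gives by construction. With Murc counted under Cavin4, an alternative chosen after seeing the data, the counts were 14 lower and 2 higher.

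Changes of sign occurred in 8 genes that had not passed. After centring, the log2 fold change was 0.0515 for Cap2, 0.0834 for Xirp2, 0.0683 for Ankrd1, 0.0196 for Cryab and 0.032 for Bag3. After another quantile normalization it was -0.0042 for Myoz1, -0.0039 for Ankrd2 and -0.0328 for Capn3, and the shift of Ankrd1 against Ankrd2 was 0.0033. When 1 sample was left out, it ranged from -0.0634 to 0.0266 for Xirp2, -0.0278 to 0.0915 for Ankrd2, -0.0199 to 0.0608 for Capn3 and -0.0512 to 0.0119 for Ankrd1, and the shift of Trim63 against Trim54 from -0.0348 to 0.0361.

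Samples with the same number did not deviate together (correlations of their deviations from the group means of -0.025, 0.046 and -0.285). With 3 samples per group these correlations cannot tell whether the numbers pair the samples, and the main fit took them as unpaired. With the replicate block 11 members were lower, 2 were higher and 1500 probe sets passed. Of all probe sets 6.6% were lower and 3.2% higher in that fit.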
